A study of Drosophila melanogaster with 2 samples.

Results

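Short segments of the euchromatic arms in which the *EHMT* mutant library held more H3K9me2 tags than the control library are described here. The arms 2L, 3L, 3R and X were divided into bins of 300 bp from their first base, without 1 Mb at the centromeric end, and a tag counted towards all bins that it overlapped. A bin was chosen if the mutant count plus 1 was more than 2 times the control count plus 1 and if both libraries together held 60 or more tags. Of 312895 bins, 140760 had 60 or more tags, and 3719 of these (2.64%) met both conditions. These 3719 bins, called DD1-high bins here, covered 1.12 Mb, or 1.19% of all bins. They were chosen by their tag counts, so that the difference in tags within them is a description and not a finding.

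The data were 2 ChIP-seq libraries from *Drosophila melanogaster* at the third larval instar, 1 from EHMTDD1 and 1 from EHMT+. EHMTDD1 carries a deletion in *EHMT* that was left when the P-element KG01242 was excised imperfectly from the 5′ UTR, and the deletion takes in the translation start. EHMT+ is a precise excision of the same element in the same genetic background and was labelled as wild type. Each genotype was 1 excision line, and chromatin came from larvae, so that cell types were mixed. The sources used here do not state the number or the sex of the larvae. With 1 library per genotype there was no replicate, no p-value between genotypes was computed, and every interval given covers counting error only. The libraries were equalized by the authors to 7043913 tags each, of which 5015303 lay on the 4 whole arms in EHMTDD1 and 5063556 in EHMT+. No input library was used here, so that the number of copies of a segment and its level of H3K9me2 cannot be told apart.

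Dimethylation of lysine 9 of histone H3 is a chromatin mark best known from pericentric heterochromatin, where it is read by heterochromatin proteins and goes with repressed transcription. In euchromatin it is found at lower levels over many genes. EHMT, the fly ortholog of mammalian G9a and GLP, is a SET domain enzyme that places this mark in euchromatin, and other H3K9 methyltransferases, such as Su(var)3-9 and Eggless, act mainly in heterochromatin and on chromosome 4. Bins that lose the mark without EHMT are called loss of methylation bins (LOMBs) here, and are defined as bins whose log2 ratio of EHMTDD1 to EHMT+ is below the mean of all bins by more than 2 SD. The limit of the DD1-high bins is not the mirror image of this one. Above the mean by more than 2 SD were 771 bins, of which 189 were DD1-high, against 15866 LOMBs (5.07% of all bins).

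As a measure of counting noise, pooled tags were assigned to either library with equal probability. The mean number of bins that then meet the rule, taken from the binomial distribution of each bin, was 171, and 20 divisions drawn at random gave 148 to 195. The 3719 DD1-high bins were 21.8 times the mean number. They were 2.64% of the bins with 60 or more tags, against 0.121% for the random division. This compares the 2 libraries and not the genotypes. The rule turned round, with EHMT+ more than 2-fold higher and 60 or more tags, gave 4510 bins (3.20%), called DD1-low bins here. Thus, among bins with many tags the libraries differed in both directions, with 0.825 DD1-high bins for each DD1-low bin.

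This balance depended on the minimum of tags and on the scaling. Under 60 tags, a further 3867 bins were more than 2-fold higher in EHMTDD1 and 34153 were more than 2-fold lower. Among the 140760 bins with 60 or more tags, the median log2 ratio of EHMTDD1 to EHMT+ was 0.17, and EHMTDD1 had the higher count plus 1 in 62.4%. Among the 172135 bins with fewer tags, the median was −0.16 and EHMTDD1 was higher in 33.5%. EHMTDD1 was thus above EHMT+ more often where tags were many and below it more often where tags were few. When EHMT+ counts were multiplied by 1.125 to set the median of the bins with 60 or more tags to 0, 1647 bins remained more than 2-fold higher in EHMTDD1 and 6735 were more than 2-fold lower. The DD1-high share was similar over most of the range of tags, at 2.65% of bins with 60 to 79 tags, 2.59% with 80 to 99 and 2.38% with 100 to 149. It was 3.90% (Wilson interval 3.44 to 4.42%) of the 6099 bins with 150 or more tags. The DD1-low share was 4.20% at 60 to 79 tags and 1.26% at 150 or more. The median log2 ratio of EHMTDD1 to EHMT+ also rose with the tags, from 0.12 at 60 to 79 tags to 0.36 at 150 or more. An equal random division, which leaves out this shift, gives a mean of 146 DD1-high bins at 60 to 79 tags, where 1975 were found. At 150 or more tags it gives 0.0240, and 238 were found.

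The EHMT+ level of the DD1-high bins, which is part of the rule, was somewhat below that of all bins and well below that of other bins with 60 or more tags. They had a median of 54 tags in EHMTDD1, with 41 the lowest and 413 the highest, and a median of 23 tags in EHMT+, with 0 the lowest and 148 the highest. All bins had a median of 28 tags in both EHMTDD1 and EHMT+. The 132531 bins with 60 or more tags that were neither DD1-high nor DD1-low, called other bins here, had a median of 42 tags in EHMTDD1 and 38 in EHMT+. The upper quartile of DD1-high bins in EHMT+, 29 tags, was below the lower quartile of these other bins, 32 tags. Of the DD1-high bins, 2713 (72.9%) were at or below the EHMT+ median of all bins, and 139 (3.74%) were above its 95th percentile of 58 tags. By contrast, 993 (26.7%) were above the 95th percentile of EHMTDD1, 65 tags. Bins with 20 to 29 tags in EHMT+ held 2160 of the DD1-high bins (58.1%) and were 33.2% of all bins. Bins with under 10 tags in EHMT+ were 5.28% of all bins and held 3 DD1-high bins. Bins with 60 or more tags in EHMT+ held 132. These shares follow in part from the rule, which needs more than 41 tags in EHMTDD1 where EHMT+ has 20.

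**Figure D1:**
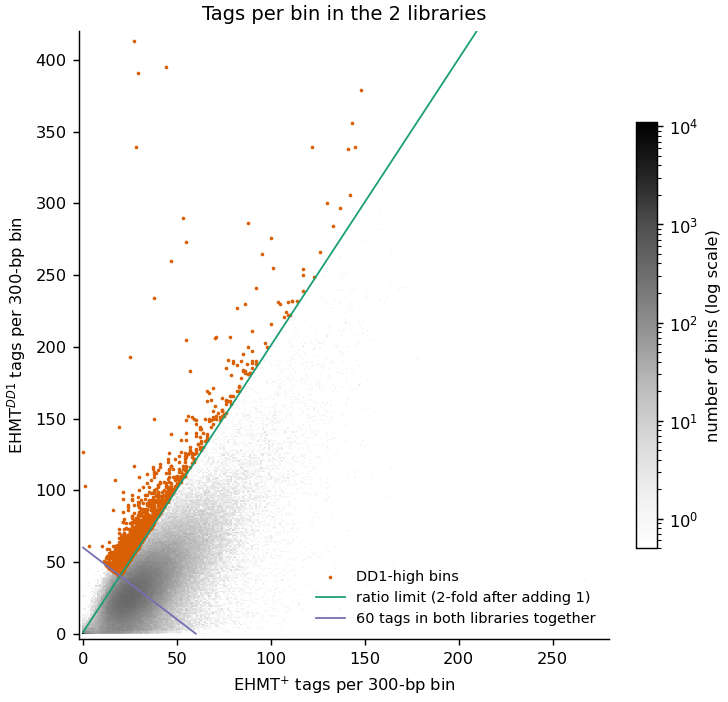
Tags per 300-bp bin in EHMTDD1 (vertical axis) and EHMT+ (horizontal axis) over the 312895 bins. The grey scale gives the number of bins with each pair of counts, and the orange points are the 3719 DD1-high bins. The lines are the ratio limit and the minimum of 60 tags. Most DD1-high bins lay just above the ratio limit with 17 to 51 tags in EHMT+, and few were far from it.

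Most ratios lay near the limit of 2 that the rule sets. The ratio, after adding 1 to both counts, was between 2 and 2.5 in 3051 DD1-high bins (82.0%), between 2.5 and 3 in 528, between 3 and 4 in 117 and above 4 in 23. A bin with the median counts, 54 in EHMTDD1 and 23 in EHMT+, has a ratio of 2.35 with an exact conditional binomial 95% interval of 1.42 to 4.01. The interval of a single bin lay wholly above a ratio of 2 in 97 of the 3719. Many bins lay close to the limits. A log2 ratio of at most 1.1 was found in 1448 DD1-high bins (38.9%), and 2883 other bins with 60 or more tags had a log2 ratio from 0.9 to 1. Just inside the ratio limit was 3L:23443201-23443500 (Release 5), with 222 tags in EHMTDD1 and 110 in EHMT+. Just outside it was 3L:16359601-16359900, with 149 tags in EHMTDD1 and 74 in EHMT+, and 499 bins lay exactly on the limit. At the minimum of tags, 111 DD1-high bins had exactly 60 tags, and 143 bins with 59 tags passed the ratio limit.

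DD1-high bins were found on each of the 4 arms, in different proportions. On 3R they were 1298 (3.23% of the bins with 60 or more tags, Wilson interval 3.06 to 3.41%), on 3L 995 (2.78%, 2.62 to 2.96%), on 2L 767 (2.5%, 2.33 to 2.68%) and on X 659 (1.93%, 1.79 to 2.08%). Since 1 tag can lie in adjoining bins, these intervals, which take every bin as independent, are too narrow. 3R was the arm with more DD1-high than DD1-low bins, with 1298 and 882, while X had 659 and 1445. The arms also differed in their total tags. The ratio of EHMTDD1 to EHMT+ over the whole arm was 1.02 on 3R, 1.00 on 3L, 0.974 on 2L and 0.963 on X. With counts scaled arm by arm, the DD1-high share was 2.81% on 3R, 2.78% on 3L, 3.09% on 2L and 2.67% on X. The excess of DD1-high over DD1-low bins on 3R was kept by that scaling, at 1131 and 1033. Scaling to the median of the bins with 60 or more tags reversed it, to 590 DD1-high and 1416 DD1-low bins. With arm by arm scaling 2L also had slightly more DD1-high than DD1-low bins, 949 and 938. That scaling multiplied EHMT+ counts by 0.979 on 2L and 0.970 on X, which makes bins exactly on the ratio limit DD1-high. On 3R and 3L the factors were 1.03 and 1.00003, which leave such bins out. Over the 4 arms 499 bins lay on that limit, and their number on each arm was not counted. The order of the arms was therefore not separated from their total tags or from these bins. X and 3L had fewer DD1-high than DD1-low bins under each of the 3 scalings.

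**Figure D2:**
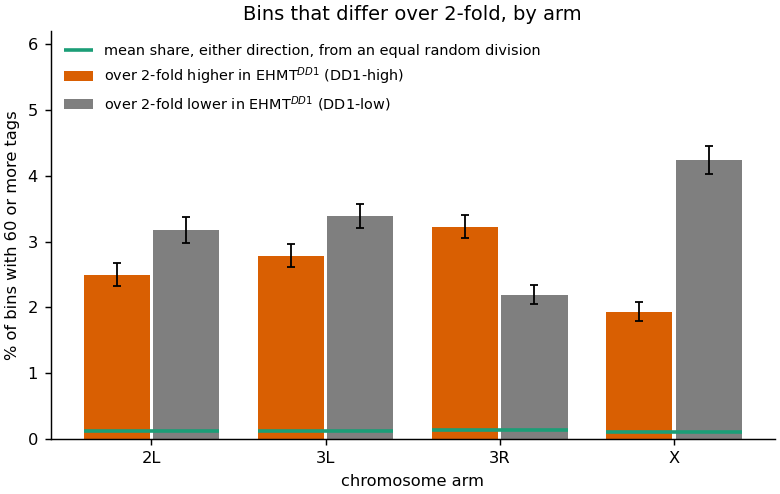
Share of bins with 60 or more tags that were more than 2-fold higher in EHMTDD1 (orange, DD1-high) or more than 2-fold lower (grey, DD1-low), for each chromosome arm. Error bars are Wilson 95% intervals and the green line is the mean share an equal random division of the pooled tags gives, 0.108 to 0.130%. DD1-high bins exceeded DD1-low bins on 3R alone, which scaling to the median of bins with 60 or more tags reversed. Scaling arm by arm extended this excess narrowly to 2L, where bins exactly on the ratio limit were then counted as DD1-high.

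DD1-high bins were spread along the arms. Of 95 windows of 1 Mb with at least 500 bins of 60 or more tags, each held DD1-high bins, and their share ranged from 0.943% to 5.03% with a median of 2.69%. The highest shares were in 2L from 15 to 16 Mb, with 48 DD1-high bins (5.03%, 3.82 to 6.61%), 3L from 12 to 13 Mb, with 67 (4.91%), and 3R from 24 to 25 Mb, with 67 (4.80%). These windows had 16, 34 and 12 DD1-low bins. The lowest share was in X from 19 to 20 Mb, with 17 DD1-high and 71 DD1-low bins. DD1-high bins were more numerous than DD1-low bins in 51 of the 95 windows, comprising 21 of 27 on 3R, 14 of 22 on 2L, 13 of 24 on 3L and 3 of 22 on X.

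DD1-high and DD1-low bins differed in where they lay. In the stretch from 1 to 2 Mb of the centromeric end, 146 of 7100 bins were DD1-high (2.06%) and 822 were DD1-low (11.6%). Within 200 kb of the telomeric end, 25 of 1231 were DD1-high (2.03%) and 124 were DD1-low (10.1%). Over the rest of the arms the shares were nearly equal, with 3548 DD1-high bins (2.68%) and 3564 DD1-low bins (2.69%). This near equality is a sum of arms that differed in opposite directions. Away from the ends, 3R had 1257 DD1-high and 814 DD1-low bins, 3L had 924 and 774, 2L had 742 and 709, and X had 625 and 1267. On 2L the stretch next to the centromeric end had 15 DD1-high bins among 1656 (0.906%), whereas on 3L it had 67 among 2166 (3.09%).

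The DD1-high bins formed 2964 runs of consecutive bins. Of these, 2343 were single bins (63.0% of the DD1-high bins), 541 were pairs, 54 had 3 bins and 26 had 4 or more. A tag of 300 bp can lie in neighbouring bins, so that pairs share tags. In 2099 of the 2343 single bins (89.6%) the bins on both sides also had more tags in EHMTDD1 than in EHMT+, without meeting the rule. These adjoining bins share tags with the chosen bin, so that the choice itself raises this share. DD1-low bins were in longer runs, with 3202 runs, of which 97 had 4 or more bins and the longest had 25. Bins at least 600 bp apart share no tags. Another DD1-high bin lay 0.6 to 4.8 kb away from 1512 DD1-high bins (40.7%, 39.1 to 42.2%). This held for 25.4% of the other bins. In runs of 3 or more bins, bins of the same run are counted here, which raises the share for DD1-high bins. At 4.8 kb before the bin, farther than any run reaches, 1.78% of bins were DD1-high around DD1-high bins. Around other bins 1.26% were.

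The runs named here are the 5 longest and the longest of each arm, with tags counted once by their midpoint. Each was picked for its ratio, and the intervals are given as a description. The longest covered 13 bins on 3L from 12181501 to 12185400, with 1175 tags in EHMTDD1 and 365 in EHMT+, a ratio of 3.22 (2.86 to 3.63). From left to right, it had 2 maxima in EHMTDD1, at 207 and 290 tags per bin. Between them the counts dipped to 77 tags in each of 2 bins. The EHMT+ library had maxima of 88 and 55 tags on the same sides, and 36 and 34 tags in these 2 bins. Both profiles thus dipped at the same bins, but the higher maximum of EHMTDD1 was the one on the right and that of EHMT+ the one on the left. In the 20 bins beyond the run, 10 on each side without the adjoining bin, the means were 44.3 tags in EHMTDD1 and 39.4 in EHMT+. Of these 20 bins, 4 were LOMBs and 2 were DD1-high.

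The next longest covered 11 bins on 2L from 20708101 to 20711400, with 394 tags in EHMTDD1 and 149 in EHMT+, a ratio of 2.64 (2.18 to 3.21). Its bins had 50 to 102 tags in EHMTDD1 and 19 to 35 in EHMT+. EHMTDD1 was also above EHMT+ beyond this run, at means of 55.7 and 33.3 tags over 20 bins, and 3 of these were DD1-high. The difference on 2L was therefore part of a wider stretch.

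The third covered 9 bins on 3R from 24309601 to 24312300, with 1102 tags in EHMTDD1 and 137 in EHMT+, a ratio of 8.04 (6.73 to 9.68). From the first bin to the last, EHMTDD1 had 62, 74, 234, 395, 391, 413, 339, 193 and 90 tags. EHMT+ had 19, 23, 38, 44, 29, 27, 28, 25 and 34 tags in the same bins. EHMT+ had 19 to 44 tags across the run, highest where EHMTDD1 had 395, against a mean of 25.7 tags in its surroundings. EHMTDD1 stood far above its surroundings, which had a mean of 33 tags. None of the 20 bins beyond the run was DD1-high, DD1-low or a LOMB. This run held 3 of the 5 DD1-high bins with most EHMTDD1 tags.

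On 3L, 2 further runs were among the 5 longest. The run of 7 bins from 23376001 to 23378100 had 674 tags in EHMTDD1 and 276 in EHMT+, a ratio of 2.44 (2.12 to 2.82). It lay in the stretch from 1 to 2 Mb of the centromeric end, and bins without tags followed shortly after it. The first bin after the run had 90 tags in EHMTDD1 and 50 in EHMT+. The second bin after the run had 0 tags in EHMTDD1 and 9 in EHMT+. The bins after that had 0 in both libraries. The run of 6 bins from 21549601 to 21551400 had 436 tags in EHMTDD1 and 188 in EHMT+, a ratio of 2.32 (1.95 to 2.77). Its EHMTDD1 counts were even, from 132 to 155 tags per bin, against 55 to 74 tags in EHMT+. Beyond it the means were 47.9 tags in EHMTDD1 and 44.4 in EHMT+. On X the longest run had 4 bins, from 12453301 to 12454500, with 61, 93, 84 and 51 tags in EHMTDD1 and 10, 36, 41 and 24 tags in EHMT+. Its ratio by midpoints was 2.61 (1.92 to 3.59), with 154 tags in EHMTDD1 and 59 in EHMT+. Of the 20 bins beyond it, 4 were DD1-high.

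**Figure D3:**
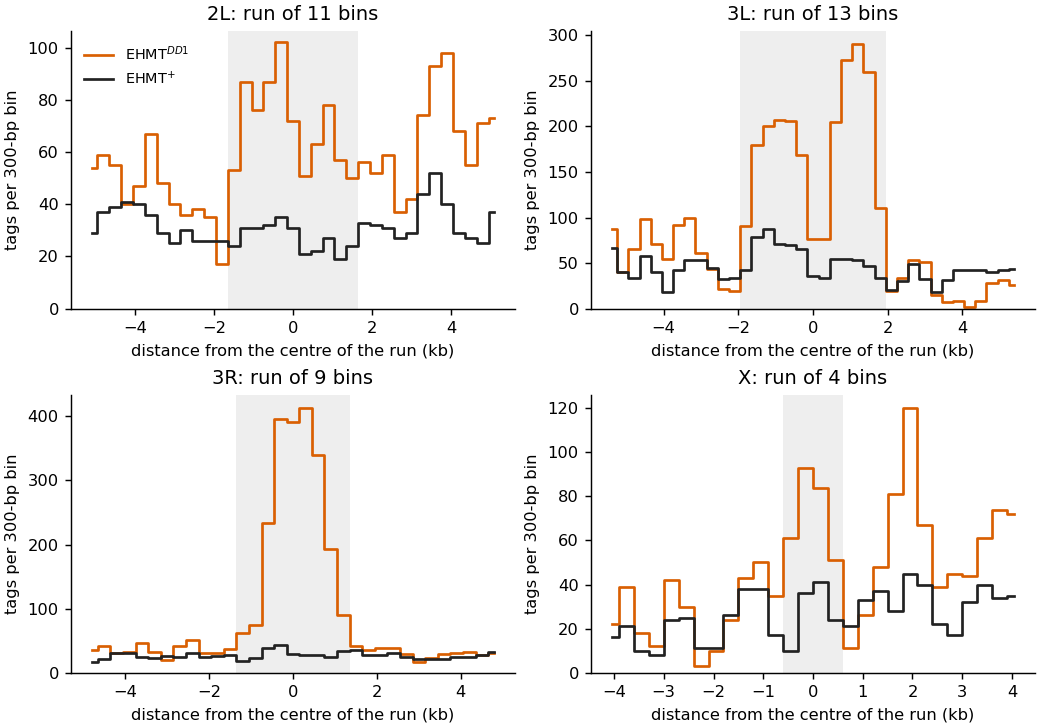
Tags per 300-bp bin in EHMTDD1 (orange) and EHMT+ (black) along the longest run of DD1-high bins on each arm, against the distance from the centre of the run in kb. The grey area is the run, and the vertical scales differ. On 3R EHMTDD1 reached 413 tags where EHMT+ had 19 to 44 tags per bin, whereas on 3L EHMTDD1 had its higher maximum, 290 tags, on the right and EHMT+ had its own, 88 tags, on the left.

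The 5 DD1-high bins with the largest ratio were on 3L and 3R. The largest difference was at 3L:23158801-23159100, with 127 tags in EHMTDD1 and 0 in EHMT+, and its neighbour 3L:23158501-23158800 had 103 tags in EHMTDD1 and 1 in EHMT+. By midpoints these 2 bins had 129 tags in EHMTDD1 and 1 in EHMT+. They stood alone, since none of the 20 bins beyond the adjoining ones had a tag in either library. The third was at 3L:22801-23100, near the telomeric end, with 61 tags in EHMTDD1 and 3 in EHMT+. The 20 bins around it averaged 19.3 tags in EHMTDD1 and 8.0 in EHMT+. The other two were bins of the 3R run. By contrast, the DD1-high bins at 3L:23282701-23283000 and 3L:23283001-23283300 were among the 5 with the most EHMTDD1 tags because both libraries were high there. They had 356 and 379 tags in EHMTDD1 and 143 and 148 tags in EHMT+. The run of 5 bins that held them also lay from 1 to 2 Mb of the centromeric end of 3L. Beyond this run, EHMTDD1 was below EHMT+, at means of 38.4 and 58.5 tags, and 6 of 20 bins were LOMBs. The bins before the run carried this difference. Those after it had at most 21 tags in EHMTDD1 and 9 in EHMT+. The LOMBs after it had 0 tags in EHMTDD1 and 4, 9 and 5 in EHMT+. Over the 26 runs of 4 or more bins, the ratio by midpoints ranged from 2.13 to 8.04. The genes in these runs were not analysed here.

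Away from the chosen bins, EHMTDD1 was also somewhat above EHMT+. At 0.6 to 3 kb from DD1-high bins, where no tag is shared with the chosen bin, the mean was 35.4 tags per bin in EHMTDD1 and 31.3 in EHMT+, a ratio of 1.13. At 3.3 to 9.9 kb the means were 32.6 and 30.8 tags, a ratio of 1.06. Around the other bins the ratio was 1.01 at 0.6 to 3 kb and 1.00 at 3.3 to 9.9 kb. The EHMT+ level around DD1-high bins, 31.3 tags, was lower than the 35.3 tags around other bins and close to the mean of 30.5 tags over all bins. The EHMTDD1 level was about the same around both, at 35.4 and 35.5 tags. Flanking bins can be DD1-high themselves, and at 600 bp 4.92% of them were.

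Taken bin by bin, the surroundings within 4.8 kb, without the bin and its neighbours, had more tags in EHMTDD1 for 70.5% of DD1-high bins and for 52.5% of other bins. The median log2 ratio of these surroundings was 0.12 for DD1-high bins, with 5th and 95th percentiles of −0.32 and 0.54, and 0.02 for other bins. It exceeded 0.5 for 6.78% of DD1-high bins and for 1.105% of other bins. DD1-high bins thus lay mostly in surroundings where the libraries differed little. Surroundings above 0.5 were nevertheless more frequent for DD1-high bins than for other bins. In EHMTDD1, 81.5% of DD1-high bins had more tags than both bins 600 bp away, against 49.2% of other bins. In EHMT+, 45.1% of DD1-high bins had fewer tags than both of these bins, against 15.1% of other bins. The counts of the chosen bin enter these shares, and a rule that takes high EHMTDD1 and low EHMT+ counts moves them in these directions.

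**Figure D4:**
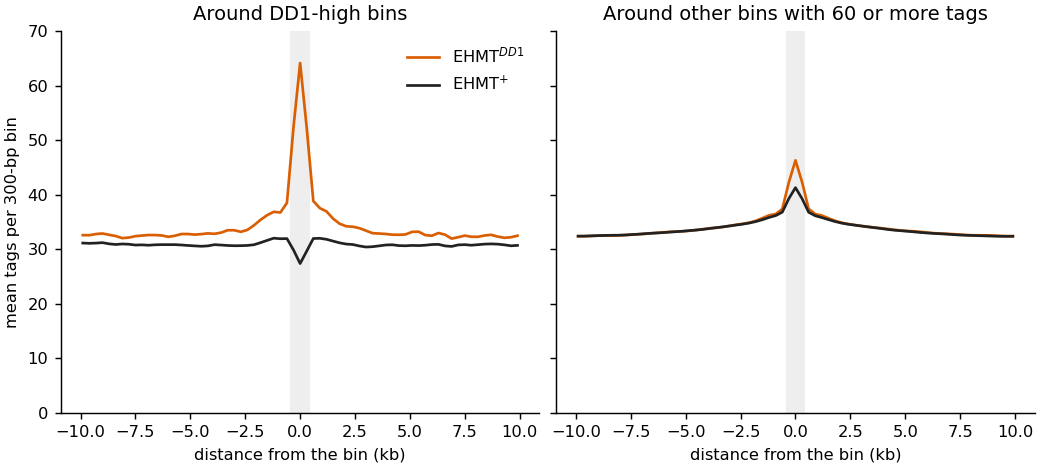
Mean tags per 300-bp bin in EHMTDD1 (orange) and EHMT+ (black) against the distance in kb from DD1-high bins (left) and from other bins with 60 or more tags (right). The grey area marks the bin and its neighbours, which share tags with it. Beyond it, EHMTDD1 stayed above EHMT+ around DD1-high bins, with 38.5 and 32.0 tags at 600 bp before the bin, and the libraries nearly coincided around other bins.

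Lost bins were fewer near DD1-high bins than near other bins with many tags. A LOMB lay 0.6 to 4.8 kb away from 1831 DD1-high bins (49.2%, 47.6 to 50.8%). This held for 57.4% of other bins and 78.6% of DD1-low bins. Over all bins the share was 58.1%. At 0.6 to 0.9 kb the shares were 9.52% for DD1-high bins and 13.6% for other bins. Of the LOMBs, 1135 had 60 or more tags, so that most were bins with few tags. A DD1-low bin lay 0.6 to 4.8 kb away from 624 DD1-high bins (16.8%, 15.6 to 18.0%), against 28.4% of other bins. The share was 21.8% over all bins. On each arm both shares were lower for DD1-high bins than for other bins. With LOMBs they were 44.9% and 52.6% on 3R, 48.7% and 58.1% on 3L, 53.6% and 59.9% on 2L, and 53.4% and 59.9% on X. Single DD1-high bins and those in runs were alike in this respect, with a LOMB 0.6 to 4.8 kb away from 49.98% and 47.97% of them. Within 9.9 kb, leaving out the adjoining bins, 2764 DD1-high bins (74.3%) and 79.6% of other bins had a LOMB. The part of the higher surrounding ratio in these shares was not tested.

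**Figure D5:**
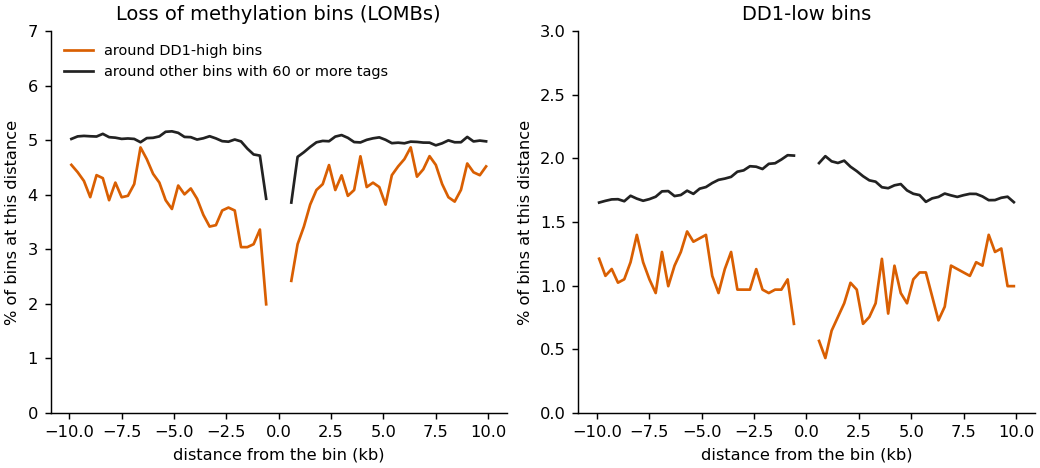
Share of bins that were LOMBs (left) or DD1-low bins (right), in percent, at each distance in kb from DD1-high bins (orange) and from other bins with 60 or more tags (black). Distances under 600 bp are left out because bins there share tags. At 600 bp after the bin, 2.42% of bins were LOMBs around DD1-high bins and 3.86% around other bins.

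Strand was not used in the choice of bins. In DD1-high bins, plus-strand tags were 49.7% of 125111 tags in EHMTDD1 (exact interval 49.43 to 49.98%) and 50.1% of 51261 tags in EHMT+ (49.7 to 50.6%), counted by midpoint. Over all bins they were 50.03% in EHMTDD1 and 49.97% in EHMT+. In 3717 of the 3719 DD1-high bins EHMTDD1 had more tags than EHMT+ on each strand, which the choice by the summed counts of both strands nearly fixes. No 2 tags of a library shared a start and a strand, so that repeated tags did not enter these counts.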

How the data were processed

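H3K9me2 was profiled by ChIP-seq in 1 library of EHMTDD1 and 1 of EHMT+ larvae. Per the methods, the authors aligned reads with the Illumina Analysis Pipeline to BDGP Release 5, with 1 mismatch allowed. This assembly (dm3) is also named in the submitters' processing notes. The authors retained uniquely placed reads and lengthened each along its direction to a 300-bp tag. They equalized the libraries to the number of tags in the smaller one, 7043913. The deposited values are first and last positions of extended tags with their strand. Unique mapping leaves out repeated sequence, and the extension spreads a tag over neighbouring bins.

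Positions were read as counted from 1, and overlapping tags were summed per 300-bp bin. Arm ends were taken from the last tag. The log2 ratio of EHMTDD1 to EHMT+ was taken after adding 1 to both counts. LOMBs were bins below the mean by 2 SD. Shares have Wilson and ratios exact conditional binomial 95% intervals. Bin counting was tested on simulated data. The members and the comparisons were chosen with earlier results of these data known. Regions were named by rule: the 5 longest runs, the longest of each arm, the 5 bins with the largest ratio, the 5 with most EHMTDD1 tags, bins at the thresholds and the 1-Mb windows with the highest share. Genes, base composition and sequences were not analysed here, since no Release 5 genome was used. Results were recomputed with other choices of the pseudocount, the minimum of tags, the ratio limit, the counting, grid and size of bins, scaling and the part of the arms left out. Computations ran in Python 3.11.15 with pandas 2.3.3, SciPy 1.17.1 and NumPy 2.4.6, and plots were drawn with Matplotlib 3.10.9.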

Additional observations from a re-analysis of the deposited data

How the results depend on the processing

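No paired analysis was possible because there was 1 library per genotype, and for the same reason no replicate could be left out. Scaling arm by arm was chosen after the data were seen. The number of DD1-high bins, 3719, was within 1.5 times under 6 of 14 alternatives, from 3573 with 2 Mb left out to 4218 with a pseudocount of 0.5 or with scaling to the tags of the 4 arms, the difference from 3719 being the number of bins exactly on the ratio limit, 499. It was 6229 with 40 or more tags, 813 with 100 or more and 7586 with no minimum, over 239797, 30248 and 312895 bins. It was 23535 for more than 1.5-fold and 140 for more than 3-fold, 9715 with midpoints and 30 or more tags, 817 with 600-bp bins and 90 or more tags, and 1647 with scaling to the median. In the same order of these 8 settings, the runs, 2964 as reported, numbered 4867, 612, 5770, 15174, 110, 9069, 711 and 1372. The DD1-low bins, 4510 as reported, numbered 15531, 542, 38663, 12337, 1698, 7030 and 1715 under the first 7 of them. They outnumbered the DD1-high bins under 11 of 14 alternatives, the exceptions being 100 or more tags, more than 1.5-fold and midpoints. The share of DD1-high bins with a LOMB 0.6 to 4.8 kb away, 49.2%, was below that of other bins under all 14 alternatives. The shares were 54.7% of DD1-high and 62.0% of other bins with 100 or more tags, 51.7% and 57.6% for more than 1.5-fold, 67.3% and 71.6% with midpoints, and 26.3% and 35.0% with 600-bp bins. Apart from the number of bins tested and the ratio limit itself, the cause was not tested. The longest run had 13 bins as reported, 14 for more than 1.5-fold, 10 with the grid of bins shifted, 9 with scaling to the median, 8 with midpoints, 8 for more than 3-fold and 6 with 600-bp bins.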

Other observations

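The same rule was applied to sequence outside the 4 arms described above. On 2R without 1 Mb at the centromeric end, 996 of 34920 bins with 60 or more tags were more than 2-fold higher in EHMTDD1 (2.85%, Wilson interval 2.68 to 3.03%) and 1165 were more than 2-fold lower (3.34%). In the centromeric 1 Mb of 2L, 3L, 3R and X, 166 of 7090 were higher (2.34%, 2.01 to 2.72%) and 1212 were lower (17.1%). On chromosome 4, 15 of 3069 were higher (0.489%, 0.296 to 0.805%) and 1321 were lower (43.0%). In the 6 heterochromatic scaffolds, 959 of 11100 were higher (8.64%, 8.13 to 9.18%) and 1824 were lower (16.4%).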
